A study of Mus musculus with 2 samples.

Results

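The genes of heterotrimeric G proteins and of the proteins that regulate them were examined in 661W cells, a cultured mouse line described as cone photoreceptors. Membership was set by gene symbol, with earlier results of these data known. The set covers the alpha, beta and gamma subunits, the RGS proteins and their anchors, the receptor kinases Grk1 to Grk6, the beta-arrestins, the adenylyl cyclases and the alpha subunit chaperones Ric8a and Ric8b. Of 75 such genes in the GENCODE M21 annotation, 43 were among the 13281 genes with values, and the other 32 were not analysed here. These were the alpha genes Gna15, Gnal and Gnat1, the beta gene Gnb3, the gamma genes Gng3, Gng4, Gng10, Gng13, Gngt1 and Gngt2, the kinases Grk1 and Grk3, the cyclases Adcy1, Adcy2, Adcy4, Adcy8 and Adcy10, the anchors Rgs7bp and Rgs9bp, and Rgs1, Rgs5, Rgs6, Rgs7, Rgs8, Rgs11, Rgs13, Rgs14, Rgs16, Rgs18, Rgs20, Rgs21 and Rgs22. Each listed gene was above 1 CPM, a read count scaled to the library size, in both libraries, so all 43 passed the filter on low values.

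RNA was sequenced as 1 library of 661W cells stably expressing 3xF-TRPM1 (labelled 3xFlag-TRPM1) and 1 library of 661W cells stably carrying the empty vector (labelled control vector). TRPM1 here is the full-length human channel with a FLAG tag at its N-terminus, delivered in the pBabe-Puro retrovirus. Its puromycin resistance marker allows infected cells to be selected. 661W cells carry the SV40 T antigen and trace back to a mouse eye tumor. With 1 library per group there is no replicate check, and an effect of the channel and a difference between the 2 cultures cannot be told apart. Each difference below compares these 2 libraries, each interval covers counting error only, and no p-value is given.

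A heterotrimeric G protein couples a cell surface receptor to enzymes and channels inside the cell. An activated receptor makes the alpha subunit exchange GDP for GTP, alpha parts from the beta-gamma pair, and each acts on its own effectors. RGS proteins speed the return to GDP, whereas receptor kinases and arrestins silence the receptor. In cones, the transducin alpha subunit Gnat2 carries the light signal from the opsin to a phosphodiesterase. In ON bipolar cells, the glutamate receptor mGluR6 acts through Go, whose alpha subunit is Gnao1, to keep the TRPM1 channel closed in the dark, and RGS proteins bound to Gnb5 end that signal.

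The listed genes held 17869838 reads in the 3xF-TRPM1 library and 16404444 reads in the empty vector library. Of those, 53940 and 49674 reads came from the 43 genes, or 0.302% and 0.303%. Both markers taken for the set, Gnat2 and Gnao1, were listed in both libraries. Of 10 cone markers, however, only Gnat2 was listed, and the other 9, among them both cone opsins, were not analysed here. A gene is called higher or lower here when it differed by at least 1.5-fold, with a 95% exact interval of its read ratio (binomial counting error) that left out 1-fold. Over all 13281 genes, 3.91% were higher and 3.07% lower in 3xF-TRPM1 cells. Against that, 7 of 11 measured fibroblast and matrix genes and 3 of 6 Mueller glia markers were higher, and the 2 measured leukocyte markers were lower. The summed level was 23272 CPM in the 3xF-TRPM1 and 14664 CPM in the empty vector library for the fibroblast list, where the matrix protein Postn, at 9328 and 5193 CPM, and fibronectin Fn1, at 5817 and 4653 CPM, were the most abundant. It was 1463 CPM in the 3xF-TRPM1 and 978 CPM in the empty vector library for the Mueller glia list, led by Slc1a3 and Dkk3. For the leukocyte list, of which Cd14 and Cd68 alone were listed, it was 9.07 and 15.9 CPM. The part of these shifts in the results for G protein genes was not tested. In a bulk sample, fewer cells of a type and less RNA per cell cannot be told apart.

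Of the 43 genes, 4 were higher in 3xF-TRPM1 cells and 0 were lower. Only genes above 1 CPM in both libraries are listed, so the other 32 genes could not be called in either direction. The higher genes were Rgs4, a GTPase-activating protein for Gi/o and Gq alpha subunits, Gng2, a widely used gamma subunit, Gnai1, an inhibitory alpha subunit, and Arrb1, beta-arrestin 1. By the same rule 3.91% of all 13281 genes were higher and 3.07% were lower, or 6.98% in either direction, against 9.30% higher and 0% lower in the set. Each of the 4 belongs to a different functional class. The median log2 fold change of the 43 genes was -0.027, and that of all genes was 0.0093. Within 1.2-fold lay 31 of the 43 genes, or 72.1%, close to the 68.9% of all genes. Of the 17 with a mean of at least 50 CPM, 15 lay within 1.2-fold (88.2%, against 84.1% of all such genes). Of the 26 under 50 CPM, 3 were higher (11.5%) and 0 lower. Of all genes under 50 CPM, 4.94% were higher and 4.56% lower, or 9.5% in either direction.

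The promoters of the higher genes are shown because these are the genes that differed. RefSeq windows on GRCm38.p6, from 250 bases before to 50 bases after the start, were found for 35 of the 43 genes and for 3 of the 4 higher ones; Arrb1 was the other. They are printed 5′ to 3′ on the strand of the gene, all 3 on the minus strand. Capitals mark the cyclic AMP response element half-site TGACG, the GC box GGGCGG and the TATA box TATAAA, each on either strand. The full element TGACGTCA, which contains the half-site, was also searched and is in none of the 3. The windows are chr1:169747593-169747892 for Rgs4, chr14:19976644-19976943 for Gng2 and chr5:18360364-18360663 for Gnai1. Against the GENCODE spans given below, the Gnai1 window lies wholly outside its gene and the Gng2 window wholly inside.
Rgs4: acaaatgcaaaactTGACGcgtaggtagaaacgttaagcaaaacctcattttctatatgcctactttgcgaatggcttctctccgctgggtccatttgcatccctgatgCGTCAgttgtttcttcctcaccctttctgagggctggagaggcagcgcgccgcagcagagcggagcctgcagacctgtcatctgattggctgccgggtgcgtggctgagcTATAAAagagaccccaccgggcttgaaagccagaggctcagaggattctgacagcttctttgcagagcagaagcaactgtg
Gng2: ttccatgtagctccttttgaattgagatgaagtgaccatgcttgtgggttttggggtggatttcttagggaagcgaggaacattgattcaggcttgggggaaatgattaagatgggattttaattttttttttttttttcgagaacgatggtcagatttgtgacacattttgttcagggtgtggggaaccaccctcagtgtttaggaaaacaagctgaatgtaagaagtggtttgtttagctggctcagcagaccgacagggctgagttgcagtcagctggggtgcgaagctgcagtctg
Gnai1: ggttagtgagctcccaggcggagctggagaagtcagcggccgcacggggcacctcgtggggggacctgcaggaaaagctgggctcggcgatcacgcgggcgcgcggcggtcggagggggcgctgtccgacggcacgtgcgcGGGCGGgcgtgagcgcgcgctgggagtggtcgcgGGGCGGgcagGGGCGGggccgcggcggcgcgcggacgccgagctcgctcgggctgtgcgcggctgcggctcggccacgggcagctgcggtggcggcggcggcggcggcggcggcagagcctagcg
The Rgs4 window holds 2 half-sites and 1 TATA box, the Gnai1 window holds 3 GC boxes, and the Gng2 window holds no match to any of these motifs. Among 32851 windows of the same length in the mouse table, 20.8% hold the half-site, 35.7% the GC box, 13.6% the TATA box and 1.79% the full element. Among the 49 windows of the set, 28.6% hold the half-site, 63.3% the GC box, 16.3% the TATA box and 0% the full element. The GC content was 53% for Rgs4, 44.7% for Gng2 and 80% for Gnai1, and the median over all windows was 52.7%. A match describes letters in the window and not binding.

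Rgs4 was the most strongly higher gene of the set. The gene spans chromosome 1, 169741477 to 169747642 (GRCm38). It had 6.35 CPM (112 reads) in 3xF-TRPM1 cells, against 1.73 CPM (29 reads) in empty vector cells, and differed by 1.62 on the log2 scale (95% counting interval, 1.27 to 2.52). Differences of this kind are log2 ratios of 3xF-TRPM1 to empty vector after adding 0.5 CPM to both. The added amount shrinks the ratios of scarce genes, while the interval has none added and is therefore not centred on the ratio. Sorted by this fold change, Rgs4 stood at place 24 of 13281 genes. It was the only gene of the set beyond 2-fold, and in empty vector cells it was close to 1.02 CPM, the lowest value listed.

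Gng2 spans chromosome 14, 19872559 to 19977627, and had 46.7 CPM (824 reads) in 3xF-TRPM1 cells and 26.2 CPM (439 reads) in empty vector cells. The log2 ratio was 0.82, with a counting interval of 0.66 to 1.0. Of its exon bases, 20.4% overlap the opposite-strand gene Gm48283, and the strand setting of the read counting is not given in the sources used here. Arrb1, which blocks activated receptors and links them to endocytosis, spans chromosome 7, 99535466 to 99606771. The gene had 68.5 CPM (1208 reads) in 3xF-TRPM1 cells and 43.9 CPM (734 reads) in empty vector cells, with a log2 ratio of 0.64 (interval, 0.51 to 0.78). Arrb1 was the most abundant of the 4 in both libraries on the CPM scale, and its value is only just past the threshold of 0.58. Gnai1 spans chromosome 5, 18265135 to 18360355, and had 2.32 CPM (41 reads) in 3xF-TRPM1 cells and 1.26 CPM (21 reads) in empty vector cells. The log2 ratio was 0.69, and the counting interval, 0.10 to 1.72, nearly reached 1-fold. With a pseudocount of 1 its value was 0.56, below the threshold.

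**Figure D1:**
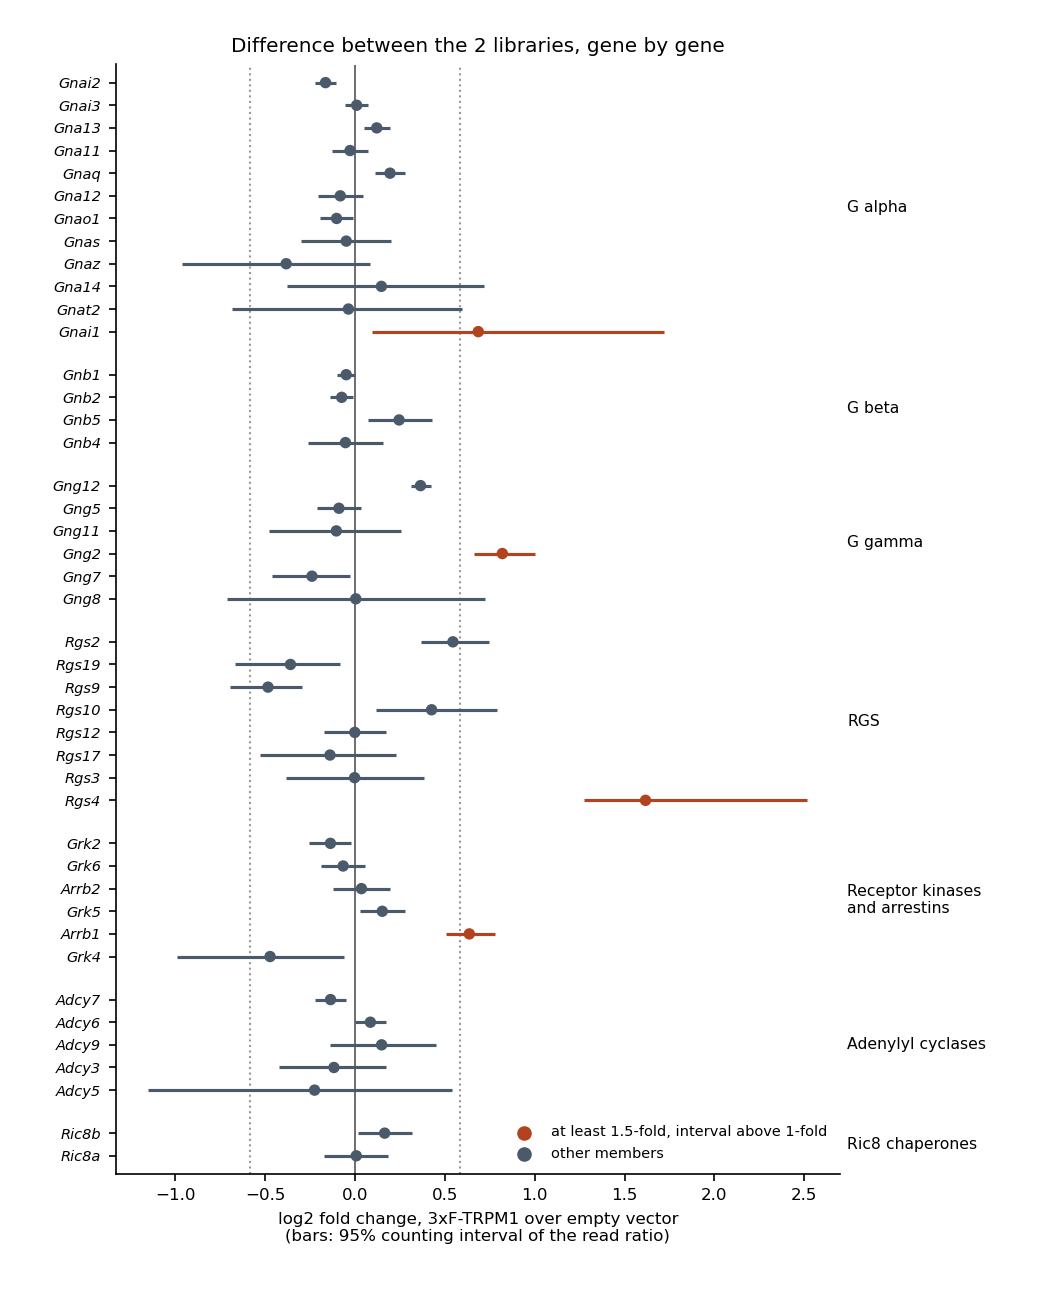
log2 fold change of each of the 43 genes (x axis, 3xF-TRPM1 over empty vector), with bars for the 95% counting interval of the read ratio and dotted lines at 1.5-fold. Rgs4 (1.62), Gng2 (0.82), Gnai1 (0.69) and Arrb1 (0.64), in red, lie beyond the right line, and no gene lies beyond the left one.

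The alpha subunits are described first by their level. Levels of different genes are compared per length, as CPM per kilobase of the deposited gene length. For the genes of the set, this length is that of the merged exons of all annotated transcripts. Which transcripts the cells use was not examined, so the order of genes per length depends on this choice. The inhibitory subunits Gnai2 and Gnai3 were the most abundant of 12 measured alpha genes. Gnai2 was at 73.6 CPM per kilobase in 3xF-TRPM1 cells and at 82.5 in empty vector cells, and Gnai3 at 68.8 and 68.4. Both together made up more of the alpha level than all other alpha genes combined, with shares of 29.2% and 27.3% in the 3xF-TRPM1 library and 32.0% and 26.6% in the empty vector library. This order and these shares take the level of Gnas as it was counted, which is uncertain, as described below. Next came Gna13, which acts on the small GTPase RhoA, at 30.5 CPM per kilobase in 3xF-TRPM1 cells and 28.0 in empty vector cells. The phospholipase C activators Gnaq and Gna11 followed. Gnaq was at 24.5 and Gna11 at 23.1 CPM per kilobase in 3xF-TRPM1 cells, with counting intervals that overlapped, and in empty vector cells Gnaq was at 21.4 and Gna11 at 23.5, in the opposite order and without overlap. Gna12 was at 17.2 and 18.2 CPM per kilobase in 3xF-TRPM1 and empty vector cells. It shares 13.3% of its exon bases with the opposite-strand gene Amz1, which is also listed.

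Gnao1 and Gnat2 differed in level by more than 10 times per length. Gnao1 was at 109 CPM (1918 reads) in 3xF-TRPM1 cells and at 117 CPM (1953 reads) in empty vector cells, or 9.84 and 10.6 CPM per kilobase. The gene spans chromosome 8, 93809966 to 93969388. The log2 ratio was -0.10 (95% counting interval -0.19 to -0.01). Gnat2, on chromosome 3, 108092789 to 108101432, was at 2.49 CPM (44 reads) in 3xF-TRPM1 cells and at 2.57 CPM (43 reads) in empty vector cells, or 0.833 and 0.858 CPM per kilobase. On the log2 scale the ratio was -0.04, with a counting interval from -0.68 to 0.60. At this depth, counting did not exclude a 1.5-fold difference in either direction. Neither the mediator of mGluR6 signalling nor the transducin subunit of cones passed the threshold between the libraries.

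Gnat2 stood at the low end of the order, where neighbours could not be told apart by counting. In 3xF-TRPM1 cells Gnas, Gna14, Gnaz, Gnat2 and Gnai1 followed each other at 1.38, 1.06, 0.895, 0.833 and 0.741 CPM per kilobase, each with an interval that overlapped the next. In empty vector cells the order was Gnas at 1.43, Gnaz at 1.21, Gna14 at 0.940, Gnat2 at 0.858 and Gnai1 at 0.40 CPM per kilobase, and only the last step was beyond the intervals. Gnaz encodes the pertussis-toxin-insensitive member of the Gi family, and Gna14 a member of the Gq family.

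Gnas, which encodes the stimulatory alpha subunit that activates adenylyl cyclase, had a low value for a gene that most cell types transcribe strongly. It was at 15.4 CPM (272 reads) in 3xF-TRPM1 cells and at 16.0 CPM (267 reads) in empty vector cells, with a log2 ratio of -0.05 (interval, -0.30 to 0.20). In the annotation 22% of its exon bases overlap the opposite-strand genes Nespas and Gm20721. How the counting treated reads of overlapping genes is not given in the sources used here, and the part of this overlap in the value was not tested. The ratio between the libraries was close to 1-fold, while the level of Gnas itself is uncertain. With it, the order of the alpha genes and their shares of the alpha level are uncertain too.

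**Figure D2:**
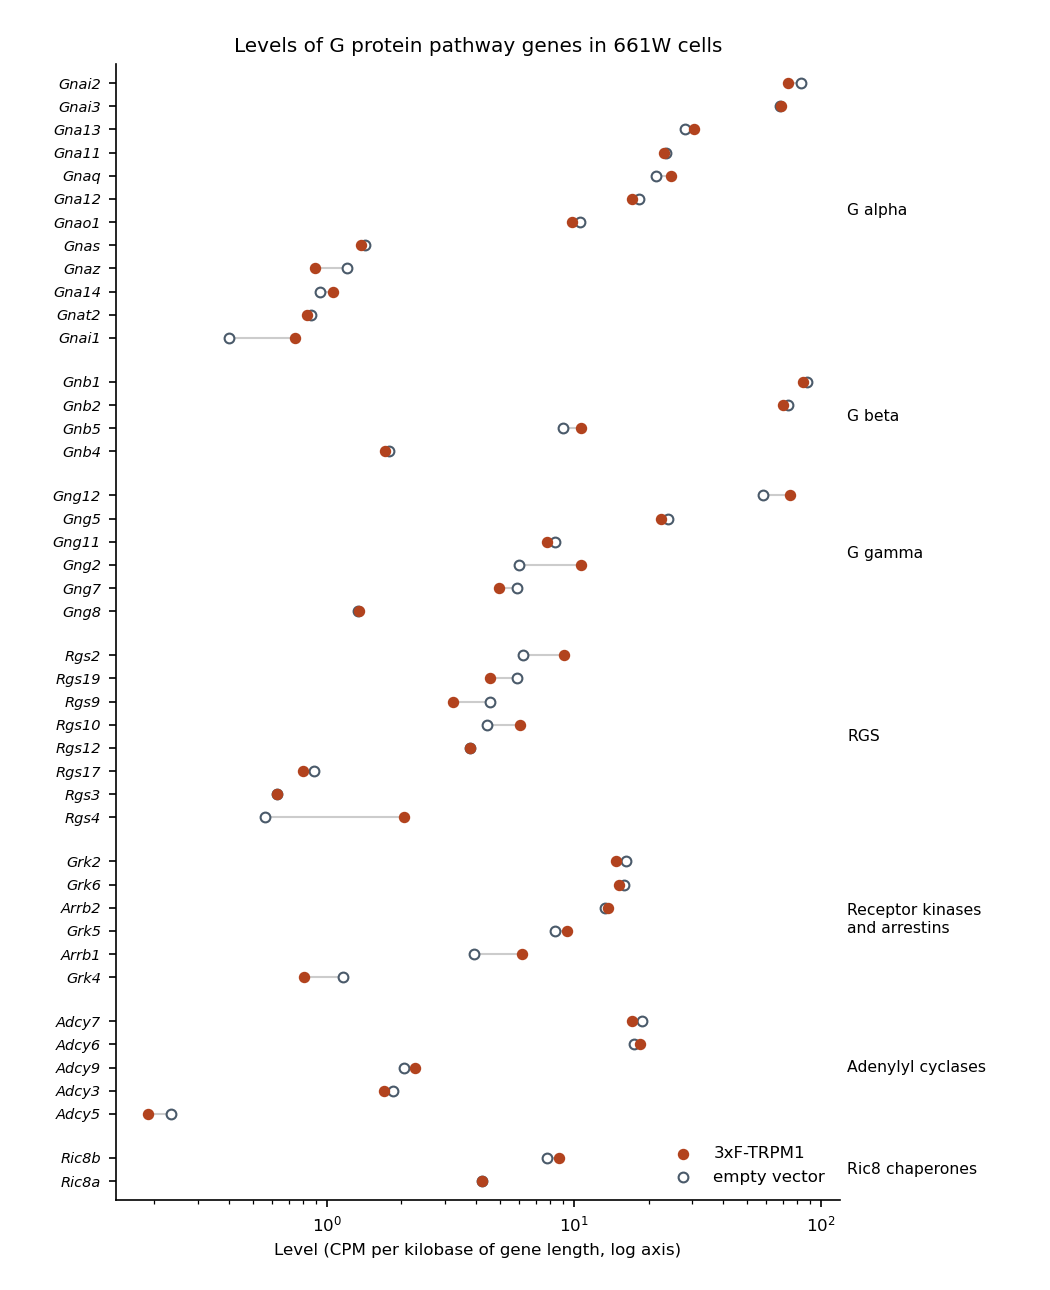
Level of each gene in the 3xF-TRPM1 library (filled) and the empty vector library (open), in CPM per kilobase of gene length on a log axis, grouped by role. Gnb1, Gnb2, Gnai2, Gnai3 and Gng12 hold the top, and the longest gap between the libraries is that of Rgs4, at 2.05 against 0.560 CPM per kilobase.

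Of the beta subunits, which pair with gamma and carry signals of their own, 4 were measured and 0 passed the threshold. Gnb1 was at 84.7 CPM per kilobase in 3xF-TRPM1 cells and at 87.6 in empty vector cells, and Gnb2 at 70.0 and 73.6. Together they gave over 90% of the beta level in both libraries, with shares of 50.7% and 41.9% in the 3xF-TRPM1 library. Gnb5, the atypical beta subunit that stabilizes RGS proteins of the R7 family, was at 33.3 CPM (588 reads) in 3xF-TRPM1 cells and at 28.0 CPM (469 reads) in empty vector cells. Its log2 ratio was 0.25 (95% counting interval 0.07 to 0.43), short of 1.5-fold. Gnb4 was the lowest, at 1.72 and 1.79 CPM per kilobase in 3xF-TRPM1 and empty vector cells. All 4 beta genes were within 1.2-fold between the libraries.

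The gamma subunits, which anchor the beta-gamma pair in the membrane through a lipid tail, were the class whose summed level differed most among alpha, beta and gamma. The 6 measured gamma genes summed to 122 CPM per kilobase in 3xF-TRPM1 cells and to 104 in empty vector cells. For alpha the sums were 253 and 257, and for beta 167 and 172. Gng12 accounted for most of the gamma level, with 353 CPM (6234 reads) in 3xF-TRPM1 cells and 274 CPM (4589 reads) in empty vector cells. Its log2 fold change of 0.36 (95% counting interval 0.31 to 0.42) had a narrow interval that excluded 1-fold but also stayed short of 1.5-fold. Gng5 was at 22.6 CPM per kilobase in 3xF-TRPM1 cells and at 24.0 in empty vector cells. Within the class the order changed: Gng2 was the third most abundant in 3xF-TRPM1 cells, at 10.6 CPM per kilobase, ahead of Gng11 at 7.77. In empty vector cells Gng11 was at 8.39 CPM per kilobase, ahead of Gng2 at 5.98. Gng2 and Gng7 had overlapping intervals in empty vector cells, where Gng7 was at 5.87 CPM per kilobase, and not in 3xF-TRPM1 cells, where Gng7 was at 4.96. Gng8 was at 2.04 and 2.03 CPM in 3xF-TRPM1 and empty vector cells.

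**Figure D3:**
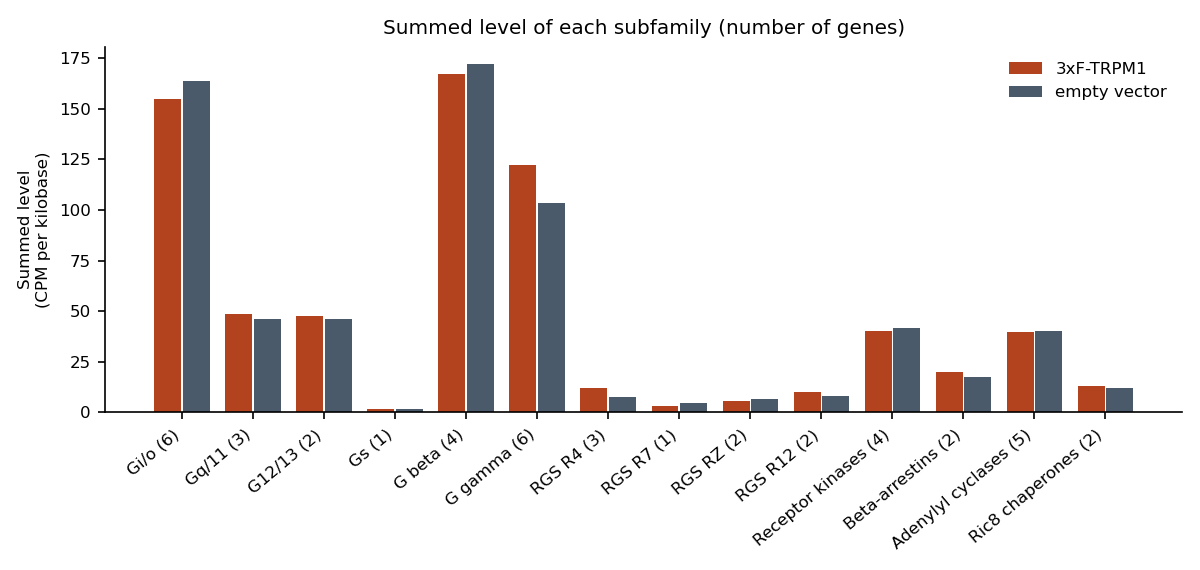
Summed level of each subfamily in CPM per kilobase of gene length (bars, 3xF-TRPM1 left and empty vector right), with the number of measured genes in brackets. Gamma subunits stand at 122 against 104, and the RGS R4 group at 11.8 against 7.37, while the other large bars lie close together.

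RGS genes had the largest median absolute difference of the 7 classes. Of 23 RGS and anchor genes in the annotation, 8 were measured. Their median absolute log2 fold change was 0.39, against 0.14 for all 43 genes and 0.15 for all listed genes. Their median abundance was low, with 10.3 CPM in 3xF-TRPM1 cells and 10.4 CPM in empty vector cells, and 3 of the 8 lay within 1.2-fold. The direction was mixed, since 3 had an interval above 1-fold, 2 had an interval below it and 3 included it. Over all genes 23.1% had an interval above and 19.7% below 1-fold.

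In the R4 family of small RGS proteins, Rgs4 is described above. Rgs2, which acts mainly on Gq and is induced by cyclic AMP, was the most abundant RGS gene per length in 3xF-TRPM1 cells, at 9.08 CPM per kilobase. In empty vector cells it was at 6.18, and its interval overlapped that of Rgs19 at 5.90. It was at 32.9 CPM (581 reads) in 3xF-TRPM1 cells and at 22.4 CPM (375 reads) in empty vector cells. Its log2 fold change of 0.55 (95% counting interval 0.37 to 0.75) fell just under the threshold of 0.58, as the next value below that of Arrb1 in the set. Rgs3 was at 6.75 CPM in 3xF-TRPM1 cells and at 6.76 CPM in empty vector cells. The summed level of the 3 R4 genes was 11.8 CPM per kilobase in 3xF-TRPM1 cells and 7.37 in empty vector cells, a ratio of 1.60.

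Rgs9, the R7 member that ends the transducin signal in photoreceptors, had the lowest log2 fold change of the set. The gene spans chromosome 11, 109225355 to 109298129, and had 20.6 CPM (364 reads) in 3xF-TRPM1 cells and 29.1 CPM (486 reads) in empty vector cells. The log2 fold change was -0.48 (95% counting interval -0.69 to -0.29), below 1-fold by counting and short of 1.5-fold. Its binding partner Gnb5 had the opposite sign, as given above. Rgs7, Rgs11, Rgs7bp and Rgs9bp, the other parts of R7 complexes in bipolar cells and photoreceptors, were not analysed here. Rgs9 was thus the R7 gene with values in these cells, next to Gnb5.

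Of the RZ family, Rgs19 was at 10.1 CPM (179 reads) in 3xF-TRPM1 cells and at 13.2 CPM (220 reads) in empty vector cells, with a log2 ratio of -0.36 (interval, -0.67 to -0.08). Rgs17 was at 6.63 and 7.35 CPM in 3xF-TRPM1 and empty vector cells, and its interval included 1-fold. Of the R12 family, Rgs10 was at 10.4 CPM (183 reads) in 3xF-TRPM1 cells and at 7.59 CPM (127 reads) in empty vector cells, with a log2 ratio of 0.43 (interval, 0.12 to 0.79). Rgs10 stood at 6.06 CPM per kilobase in 3xF-TRPM1 cells, with an interval that overlapped that of Rgs19, and at 4.44 in empty vector cells, with an interval that overlapped those of Rgs9 and Rgs12. Rgs12, a large member with several signalling domains, was at 32.1 CPM in both libraries (566 and 537 reads).

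Receptor kinases, which phosphorylate activated receptors, numbered 4, and 0 passed the threshold. Grk6 and Grk2 were the most abundant per length. Grk6 was at 15.2 CPM per kilobase in 3xF-TRPM1 cells and at 15.9 in empty vector cells, and Grk2 at 14.8 and 16.2, with intervals of the 2 genes that overlapped in each library. Grk5 was at 65.8 CPM in 3xF-TRPM1 cells and at 59.2 CPM in empty vector cells. Grk4 was at 3.91 CPM (69 reads) in 3xF-TRPM1 cells and at 5.62 CPM (94 reads) in empty vector cells, with a log2 ratio of -0.47 (interval, -0.99 to -0.06). The beta-arrestins differed from each other. Arrb2 was at 39.1 CPM in 3xF-TRPM1 cells and at 38.1 CPM in empty vector cells, with a log2 ratio of 0.04 (interval, -0.12 to 0.19), an interval that lies wholly under that of Arrb1. Per length Arrb2 remained the higher of both, at 13.7 CPM per kilobase in 3xF-TRPM1 cells and 13.4 in empty vector cells, where Arrb1 was at 6.13 and 3.93. On the CPM scale Arrb1 was the higher, at 68.5 and 43.9 CPM, so their order depends on the gene lengths of 11175 bases for Arrb1 and 2845 for Arrb2.

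Adenylyl cyclases make cyclic AMP under the control of alpha subunits. Of 10 such genes 5 were measured, and 0 passed the threshold. Adcy6, which calcium and Gi inhibit, and Adcy7, which beta-gamma can stimulate, held the class nearly alone. Adcy6 had 125 CPM (2211 reads) in 3xF-TRPM1 cells and 118 CPM (1975 reads) in empty vector cells. Adcy7 was at 115 CPM (2035 reads) in 3xF-TRPM1 cells, against 127 CPM (2121 reads) in empty vector cells. Per length they were at 18.5 and 17.1 CPM per kilobase in 3xF-TRPM1 cells, with overlapping intervals, and at 17.4 and 18.8 in empty vector cells, so their order could not be told by counting in either library. Adcy9, at 2.28 CPM per kilobase in 3xF-TRPM1 cells and 2.05 in empty vector cells, Adcy3 at 1.70 and 1.85, and Adcy5 at 0.189 and 0.233, all had intervals of the ratio that included 1-fold. Adcy3 shares 22.1% of its exon bases with the opposite-strand gene Cenpo, which is also listed. The chaperones that help fold new alpha subunits, Ric8b and Ric8a, were at 8.71 and 4.25 CPM per kilobase in 3xF-TRPM1 cells and at 7.76 and 4.23 in empty vector cells. Ric8a shares 11.4% of its exon bases with the opposite-strand genes Bet1l and Sirt3, which are also listed.

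Genes that work with these proteins were described from lists. Of 81 genes of G protein-coupled receptors and their RAMP partners, 40 were measured, 5 were higher (12.5%, against 3.91% of all genes) and 3 were lower (7.5%, against 3.07%). Of the 40, 30 had a mean under 50 CPM, where 9.5% of all genes passed in either direction. The median log2 fold change of the receptor list was 0.04, and -0.0011 when libraries were scaled by total counts. The higher receptors were the prostaglandin E2 receptor Ptger4, at 5.78 CPM in 3xF-TRPM1 cells and 2.87 CPM in empty vector cells, the chemokine scavenger Ackr3 at 19.3 and 10.5 CPM, the serotonin receptor Htr2a at 3.00 and 1.61 CPM, the adrenergic receptor Adra1b at 24.1 and 14.7 CPM, and the latrophilin Adgrl3 at 6.69 and 4.24 CPM. The lower receptors were the adenosine receptor Adora1, at 1.19 CPM in 3xF-TRPM1 cells and 3.59 CPM in empty vector cells, the sphingosine-1-phosphate receptor S1pr3 at 2.04 and 4.66 CPM, and the parathyroid hormone receptor Pth1r at 2.89 and 5.14 CPM. All 3 lower receptors, and 3 of the 5 higher ones, were under 7 CPM in both libraries. Grm6, the gene of mGluR6, was not analysed here.

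Downstream of Gq, 16 effector genes were measured and 0 passed the threshold. Their median log2 fold change was 0.26, and 10 had a counting interval above 1-fold and 3 below it, where 23.1% of all genes lay above and 19.7% below. The 16 genes had a median level of 71.8 CPM (mean of both libraries), and of 4821 genes averaging 50 CPM or more, 1556 lay above and 1290 below. Plcb1, a phospholipase C that Gq activates, was at 17.7 CPM in 3xF-TRPM1 cells and at 13.6 CPM in empty vector cells. The diacylglycerol kinase Dgkq was at 17.1 CPM in 3xF-TRPM1 cells and at 13.3 CPM in empty vector cells. Downstream of G12 and G13, 7 genes were measured, 0 passed the threshold and the median was 0.0073, with the sign turned under both other scalings (-0.0018 and -0.037).

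Of 29 measured genes of protein kinase A, EPAC and CREB, 1 was higher (3.4%, against 3.91% of all genes). In the same list 2 were lower (6.9%, against 3.07% of all genes), and the median was -0.01. The cyclic AMP phosphodiesterase Pde7b was at 4.08 CPM in 3xF-TRPM1 cells and at 1.73 CPM in empty vector cells. The kinase A regulatory subunit Prkar1b was at 7.60 CPM (134 reads) in 3xF-TRPM1 cells and at 17.9 CPM (300 reads) in empty vector cells, a log2 fold change of -1.19. The anchor protein Akap5 was at 3.17 and 5.68 CPM in 3xF-TRPM1 and empty vector cells. Of 15 measured CREB-responsive genes, which include Rgs2, 1 was higher (6.7%, against 3.91% of all genes) and 0 were lower (against 3.07%). Their median was -0.05, or 0.096 with a filter at a mean of 5 CPM. The higher gene was the coactivator Ppargc1a, at 37.9 CPM (669 reads) in 3xF-TRPM1 cells and at 17.7 CPM (296 reads) in empty vector cells, with a log2 ratio of 1.08 (interval, 0.90 to 1.30). Of 26 other regulators of G proteins, 0 were higher (against 3.91% of all genes) and 1 was lower (3.8%, against 3.07%). The lower one was the receptor-sorting gene Gprasp2, at 2.83 CPM in 3xF-TRPM1 cells and 4.54 CPM in empty vector cells. The median of these regulators was -0.01.

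**Figure D4:**
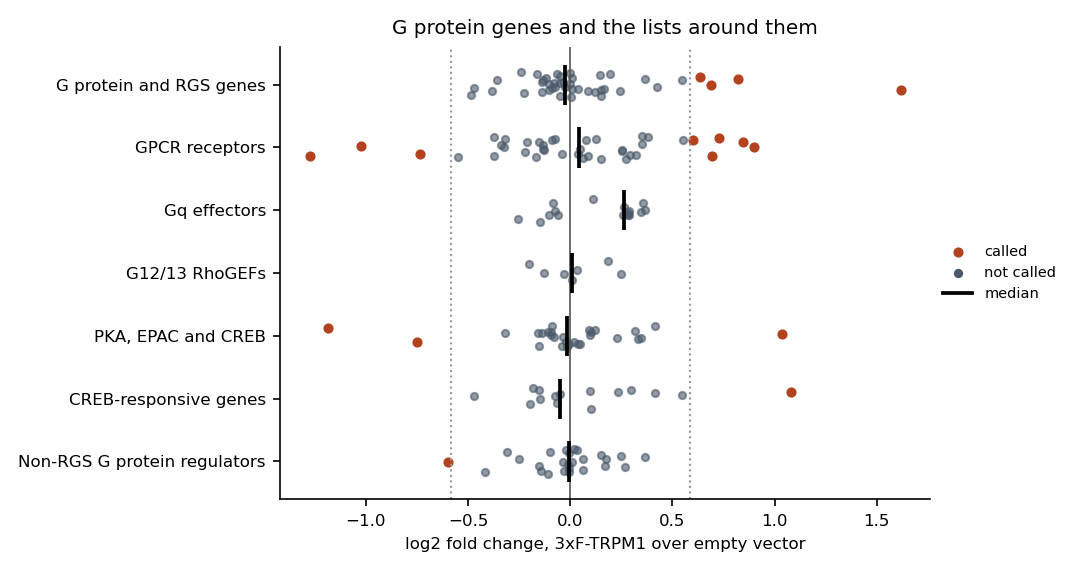
log2 fold change (x axis, 3xF-TRPM1 over empty vector) of each measured gene in the 43-gene set and in 6 lists around it, with black bars at the median and dotted lines at 1.5-fold. Called genes are red. The Gq effectors sit to the right, with a median of 0.26 and none past a line.

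Of 16 genes of the mGluR6 cascade and its ON bipolar setting, 3 were measured and 0 passed the threshold: Gnao1 and Gnb5, given above, and the kinase C gene Prkca, at 81.5 CPM in 3xF-TRPM1 cells and 87.6 CPM in empty vector cells. Of 32 phototransduction genes, 5 were measured and 0 passed the threshold. They were Gnb1, Gnb5, Gnat2, Rgs9 and the phosphodiesterase subunit Pde6b, which was at 1.13 CPM in 3xF-TRPM1 cells and at 1.79 CPM in empty vector cells. Of the neuron list, which shares Rgs4 and Gnao1 with the set, 6 of 10 genes were measured. Of these, 2 were higher (33.3%, against 3.91% of all genes) and 1 was lower (16.7%, against 3.07%). The higher genes were Rgs4, already counted in the set, and Eno2, at 74.9 CPM in 3xF-TRPM1 cells and 47.2 CPM in empty vector cells. The lower gene was Tubb3, at 4.99 and 10.3 CPM. The most abundant genes of the neuron list were Map2, at 197 CPM in 3xF-TRPM1 cells and 148 CPM in empty vector cells, and Gnao1. Of the endothelial and pericyte list, 4 of 8 genes were measured and 1 was higher (25%, against 3.91% of all genes). It was the smooth muscle actin Acta2, at 905 CPM in 3xF-TRPM1 cells and 569 CPM in empty vector cells. Rgs5, the RGS gene known as a pericyte marker, was not analysed here.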

How the data were processed

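Libraries were prepared with the KAPA mRNA HyperPrep kit and sequenced on an Illumina NovaSeq. Per the labels and methods, the authors used HISAT2 2.1.0 (GRCm38) for alignment, featureCounts 2.0.0 for counting, and then edgeR 3.28.1 and DESeq 1.40.0. For the annotation release, the strand setting and the step that made the CPM values: not given in the sources used here. The authors deposited CPM values of 13281 genes, all above 1 CPM in both libraries, with gene lengths in bases (the other deposited unit, used for CPM per kilobase). The authors' fold change, p-value and adjusted p-value columns and their table of gene set enrichment were not used, nor were 2 columns that repeat the CPM values.

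CPM values were whole multiples of 1 step per library in 100% of genes (within 0.01 of a step), which gave the reads and effective library sizes of 17639743 (3xF-TRPM1) and 16728172 (empty vector). The lowest listed genes had 18 and 17 reads. For log2 ratios 0.5 CPM was added to both values. The filter, a mean of 1 CPM or more, removed 0 genes. Intervals are 95% Clopper-Pearson intervals; they and the threshold of 1.5-fold compare libraries, not conditions. The genes and lists were chosen with earlier results of these data known. Described in full were genes past the threshold, Gnat2, Gnao1, the R7 complex, the 3 highest per class and absolute log2 fold changes of at least 0.4; from lists, the genes past the threshold or else up to 3 with large changes. Positions are from GENCODE M21 on GRCm38 (43 of 43 matched), promoters from RefSeq on GRCm38.p6. The procedure was tested on simulated reads with counting error only, which cannot show how it handles differences between cultures. Alternatives were 2 other scalings, pseudocounts of 0.1 and 1, no filter, a filter at a mean of 5 CPM, a threshold of 2-fold, and fold change alone. Computation ran in Python 3.11.15 with scipy 1.17.1, numpy 2.4.6 and pandas 2.3.3; plots were drawn with matplotlib 3.10.9.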

Additional observations from a re-analysis of the deposited data

How the results depend on the processing

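The 4 higher genes, Rgs4, Gng2, Gnai1 and Arrb1, were called under both other scalings. A pseudocount of 0.1, no filter (the filter removed 0 genes) and fold change alone could not lose a call. A pseudocount of 1 left 3 of them, without Gnai1. A mean of at least 5 CPM left 2, Gng2 and Arrb1, because the others fell under it, and reduced the lower genes of the whole table to 217 from 408. A 2-fold threshold left 1, Rgs4, with 115 higher and 117 lower genes over the table. Under total count scaling, the table held 442 higher and 480 lower genes in place of 519 and 408, and Arrb1 stood at 0.59. The count of lower genes in the set was also 0 under both other scalings, a pseudocount of 0.1 and fold change alone. The last 2 could not raise it, because the lowest CPM ratio, 0.696 for Grk4, was short of 1.5-fold with no pseudocount. Under total count scaling the lowest log2 fold change was -0.53 (Rgs9), against -0.48 in the main setting, so that shift was too small to reach the threshold. The median of the receptor kinases and arrestins was -0.015, and 0.036 with the 5 CPM filter. No paired analysis was possible because each group has 1 library. Depth limits the genes under about 5 CPM, such as Gnat2 and Gnai1.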
